A study of Mus musculus with 8 samples.

Results

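The cytosolic ribosomal protein genes were examined across 8 RNA-seq libraries of NMuMG cells, an epithelial line from normal mouse mammary gland. The genes were taken by symbol: names beginning Rpl or Rps followed by a number and at most 1 letter (a, l or x), together with Rplp0, Rplp1, Rplp2 and Rpsa. Pseudogenes and the S6 kinases do not match this pattern. Of the 18102 genes of the table, 80 symbols matched and 76 had a mean of at least 10 normalised reads over the 8 libraries; 45 encode proteins of the large (60S) subunit and 31 proteins of the small (40S) subunit. The 4 below that level were Rpl3l (mean 2.46), Rpl10l (0.375), Rps4l (0.27) and Rpl39l (0.235). Just above it were Rpl30 (29.0), Rps27 (41.5) and Rpl34 (56.3). The remaining 73 had means from 3147 (Rpl29) to 53946 (Rpl4).

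The cells were wild type (WT) or labelled as a knockout (KO) of RREB1, a RAS-responsive zinc finger transcription factor. All were grown in 10% FBS with 10 µg/mL insulin and serum starved for 6 h. They then received either 2.5 µM SB505124, which blocks the kinase of TGFβ receptors, for 6 h, or 100 pM TGFβ for 1.5 h, so that the arms differ in the agent and in its duration. No group went without both agents, so a rise under TGFβ cannot be told apart from a fall under SB505124. Rises, falls and responses below are of TGFβ against SB505124. Each of the 4 groups had 2 libraries. The labels do not say that the libraries came from separate cultures, so p-values measure the spread between these libraries, which may be technical. The column names of the KO-labelled libraries carry a single code, so these libraries are read as a single line, and a property of that line cannot be told apart from the loss of RREB1.

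Library depth ran from 25144204 to 32143113 reads. Rreb1 itself was not lower in the KO-labelled libraries: it read 1055 and 1033 normalised reads in WT under SB505124, 1959 and 1769 in WT under TGFβ, 1327 and 1343 in KO-labelled cells under SB505124, and 2481 and 2241 in KO-labelled cells under TGFβ. Its read count therefore does not show the knockout, and the position of the edit is not given in the sources used here. The epithelial genes Krt8, Krt18, Krt19 and Cdh1 were abundant in every library, while Epcam was between 4.01 and 36.6 in WT and at 0 in all KO-labelled libraries. Elf5, Esr1 and Prlr, also luminal markers, were at or below 3.72 in every library. The summed markers of fibroblasts and adipocytes were at most 172 and 13.3 in any library, those of basal cells between 17.2 and 87.2, those of endothelial cells between 3.72 and 21.0 under SB505124, 39.999 and 25.1 in WT under TGFβ and 6.15 and 13.5 in KO-labelled cells under TGFβ, and those of leukocytes, mostly Lyz2 and Cd68, between 485 and 696. Within these sums single markers differed between the genotypes in both directions. Krt5 was at most 3.43 in WT and between 56.8 and 82.1 in KO-labelled libraries. Krt14 was between 3.00 and 46.3 in WT and at 0 in all KO-labelled libraries. Dcn was between 38.9 and 94.1 in WT and at most 0.864 in KO-labelled libraries. The part of these other cell types, and of these marker differences, in the results was not tested.

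Ribosomal proteins assemble with ribosomal RNA in the nucleolus into the 40S subunit, which reads the mRNA, and the 60S subunit, which joins amino acids. Their mRNAs are among the most abundant of growing cells and are made in a coordinated way. Most begin with a terminal oligopyrimidine (TOP) tract, a C followed by a run of pyrimidines at the first base, through which mTORC1 and the RNA-binding protein LARP1 control their translation. RNA-seq of whole cells measures the amount of these mRNAs and not their translation, and in bulk RNA fewer expressing cells and less RNA per cell cannot be told apart.

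Start site sequences are shown for 9 of the genes on which the results below turn. They come from the RefSeq promoter table for GRCm38.p6, which held entries for 56 of the 76 genes. Each line gives 30 bases, 5′ to 3′ on the strand of the gene, with the pyrimidine tract in capitals. The first 3 genes were among those that rose most under TGFβ in WT cells, the next 4 lie on chromosomes 4 and 14, Rplp2 had a difference between the genotypes' responses near 0, and Rps27l is a paralog of Rps27.
Rpl38 (chr11:114668569-114668598, plus strand): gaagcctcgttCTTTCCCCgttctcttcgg
Rpl35a (chr16:33056469-33056498, plus strand): ggggcttgCCTTCCTCTTTCCgccatcttg
Rpl39 (chrX:37085198-37085227, minus strand): gcctctagcgaCTTCTTCTaatcgcgttct
Rps24 (chr14:24490665-24490694, plus strand): cgcgctggggtCCTTCCTTgcgcgttgata
Rpl15 (chr14:18270967-18270996, minus strand): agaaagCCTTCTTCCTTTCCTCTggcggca
Rps6 (chr4:86857349-86857378, minus strand): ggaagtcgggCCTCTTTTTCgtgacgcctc
Rpl11 (chr4:136053357-136053386, minus strand): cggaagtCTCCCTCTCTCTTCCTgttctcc
Rplp2 (chr7:141447637-141447666, plus strand): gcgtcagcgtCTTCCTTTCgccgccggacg
Rps27l (chr9:66946064-66946093, plus strand): ctcctctccaCTCCTCCCCgccgcctctat

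The tract of Rpl38 is 8 bases long and begins at base 1 of the annotated transcript. That of Rps6 is 10 bases long and begins 1 base before the transcript, and that of Rpl15 is 17 bases long and begins 4 bases before it. Those of Rps24, Rplp2 and Rpl35a begin 2, 4 and 5 bases before it. Those of Rpl39 and Rpl11 begin at bases 7 and 15 of the transcript. The 9 bases of Rps27l begin 12 bases before the transcript and so lie wholly upstream of it. The tracts in capitals are thus not all at the first base. A tract, searched for on the gene's own strand as a C followed by at least 7 further C or T within 50 bases of an annotated start, was present in 48 of the 56 genes (85.7%). The share was 31.4% of the 9370 other tested genes with an entry and 28.8% of all 32851 promoters of the same length. Here and for the motifs below, a gene was counted if any of its entries held the pattern. The share of all promoters counts single entries, tested or not, and so is not a like measure. The 8 genes without a tract were Rpl23, Rpl24, Rplp0, Rps13, Rps28, Rps3, Rps4x and Rpsa. Of 5 short motifs searched on both strands in the 300 bases of each entry, CCGGAAG, an ETS-type sequence, was in 23 of the 56 genes (41.1%), against 20.1% of the other tested genes and 8.86% of all promoters. Its reverse complement begins with pyrimidines and can overlap a tract. GGGCGG was in 62.5% of the genes against 69.2% of the other tested genes and 35.7% of all promoters, TATAAA in 10.7% against 8.82% and 13.6%, CACGTG in 10.7% against 11.6% and 7.15%, and CAGACA, a SMAD-type sequence, in 16.1% against 18.6% and 21.0%. In the 100 bases before the start of Rpl38, at chr11:114668480-114668579 on the plus strand, the ETS-type match (capitals) stands close to the start. GGGCGG and CAGACA also occur in these bases and are left in lower case.
Rpl38 upstream: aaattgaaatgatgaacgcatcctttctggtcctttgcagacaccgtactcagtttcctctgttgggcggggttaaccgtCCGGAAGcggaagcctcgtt

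In WT cells, ribosomal protein mRNAs were more abundant under TGFβ than under SB505124, and in KO-labelled cells they were lower than in WT under both agents. As a share of all reads, the 76 genes took 4.18% and 4.47% in the WT libraries under SB505124, and 5.27% and 5.70% under TGFβ. In the KO-labelled libraries they took 3.41% and 3.55% under SB505124, and 3.51% and 3.87% under TGFβ. The widest 95% Wilson interval of these shares, that of the second WT library under TGFβ, ran from 5.69% to 5.71% and covers counting error only. The group means were 4.33% ± 0.201 (SD, n = 2) and 5.48% ± 0.304 in WT, and 3.48% ± 0.102 and 3.69% ± 0.257 in KO-labelled cells, in the order SB505124, TGFβ. The WT groups did not overlap each other or any KO-labelled library, whereas the first KO-labelled library under TGFβ fell inside the range of those under SB505124. With the reads of Rn45s, the ribosomal RNA precursor, left out of the totals the means were 4.36%, 5.53%, 3.50% and 3.71% in the same order. The 60S genes held 2.56% and 3.18% of the reads in WT under SB505124 and TGFβ, and the 40S genes 1.77% and 2.30%.

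**Figure D1:**
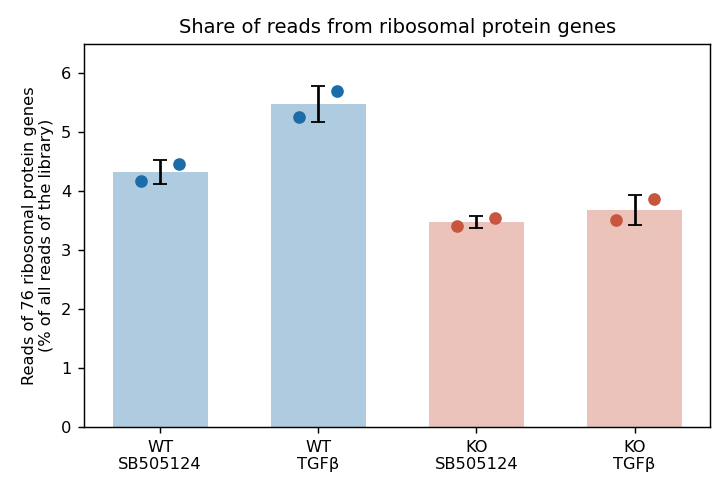
Reads of the 76 ribosomal protein genes as a percentage of all reads of the library (y axis) in the 4 groups (x axis). Bars are means of 2 libraries, error bars SD and points single libraries; the WT TGFβ libraries, at 5.27% and 5.70%, stand above all others.

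The order of the group means was the same in most genes. In 64 of the 76 the mean was highest in WT under TGFβ, then WT under SB505124, then KO-labelled under TGFβ, and lowest in KO-labelled under SB505124. In 8 genes the means under TGFβ were the upper pair, WT above KO-labelled, and WT under SB505124 came next; in 2 more WT under SB505124 was the lowest. On the RPKM scale, which divides reads by mRNA length and library depth, the means over 8 libraries had a median of 569. Rplp1 was highest, with 1999 ± 183 RPKM in WT under SB505124 and 2463 ± 380 under TGFβ (SD, n = 2), followed by Rpl41 (1795 ± 109 and 2432 ± 176) and Rps12 (1617 ± 64.6 and 2192 ± 67.6). The SDs of Rplp1 and Rpl41 overlap within each of these groups. Lowest were Rpl30 (2.19 ± 0.407 RPKM in WT under SB505124), Rpl34 (4.58 ± 0.63) and Rps27 (5.3 ± 0.345). How reads that match more than 1 place were counted is not given in the sources used here. The kit does not keep strand, and 24.8% of the exonic bases of Rpl30 overlap other genes. GENCODE names 9 pseudogenes of Rpl30, 2 of Rpl34 and 1 of Rps27, and the part of shared reads in these low levels was not tested. Genes with high levels carry such traits too. GENCODE names 24 pseudogenes of Rpl31 and 23 of Rps12, and 66.2% of the exonic bases of Rpl35 overlap other genes. Others, such as Rpl37, have neither. The level of Rps15a, 86.1 ± 2.67 RPKM, rests on an annotated mRNA of 5130 bases.

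**Figure D2:**
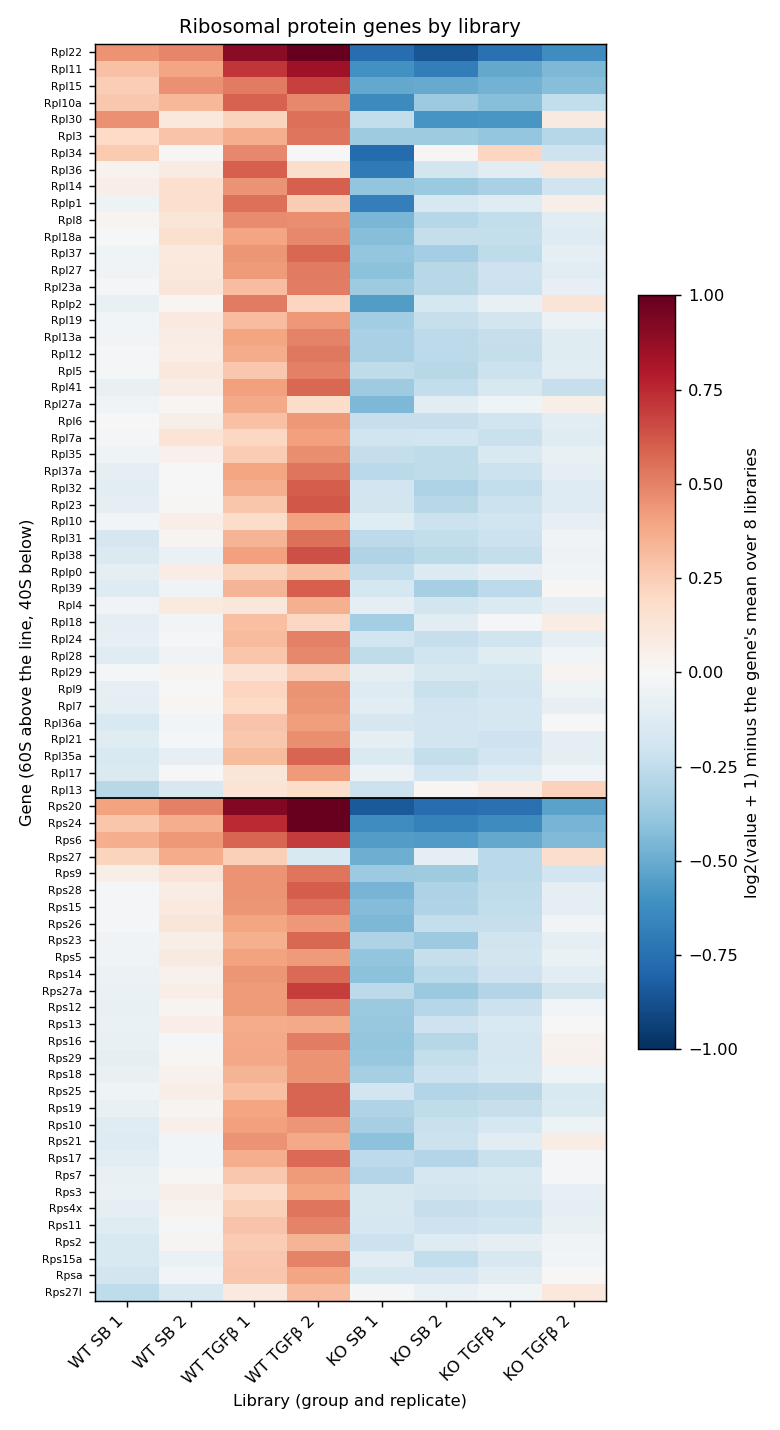
log2(normalised value + 1) of 75 of the 76 genes (rows, 60S above the line and 40S below, ordered by their KO against WT difference under SB505124) in each of the 8 libraries (columns), as the difference from the gene's mean over the libraries; colours are limited to 1 log2 unit either way. The 2 WT TGFβ columns are the highest for nearly all genes, and the rows of Rpl22, Rpl11, Rpl15, Rps20, Rps24 and Rps6 show a wide gap between the genotypes.

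The first comparison asks how ribosomal protein mRNAs differed between TGFβ and the receptor inhibitor in WT cells. Tests were made with limma over all 12498 genes with a mean of at least 10, with Benjamini-Hochberg adjustment and a threshold of 0.05. Of the 76 genes 68 rose and none fell; over all tested genes 20.2% rose and 23.2% fell. At an unadjusted p under 0.05, and with edgeR and DESeq2, the count of falls was also 0. Shares of all tested genes at that threshold, with those tools or without single libraries are not given, here or below. The median log2 fold change of the 76 was 0.41 (1.33-fold), against -0.01 over all tested genes. In 73 genes both TGFβ libraries stood above both SB505124 libraries, against 33.1% of all tested genes. Among the 45 genes of the large subunit 38 rose (median 0.38), and among the 31 of the small subunit 30 rose (median 0.45). Not called were Rpl3, Rpl4, Rpl10a, Rpl29, Rpl30, Rpl34, Rpl36 and Rps27.

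The 5 largest rises included genes of both subunits. Rpl38, a short 60S protein known for its part in translating Hox mRNAs, read 4474 and 4724 under SB505124 and 6550 and 7717 under TGFβ. Both TGFβ libraries were above both others, a log2 fold change of 0.63 ± 0.09 (SE, limma adjusted p = 1.7e-05). Rpl35a, a 60S protein mutated in some cases of Diamond-Blackfan anaemia, read 6796 and 7133 under SB505124 and 9408 and 11301 under TGFβ, a change of 0.57 ± 0.09 (adjusted p = 5.5e-05). Rps27a, made as a fusion with ubiquitin, changed by 0.56 ± 0.09, Rps24 by 0.56 ± 0.09, and Rpl39, a protein of the exit tunnel, by 0.55 ± 0.10. In each of the 5 the second TGFβ library was the higher.

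Values follow for genes with described roles in or outside the ribosome. Rpl5 and Rpl11, which carry 5S rRNA and bind the p53 regulator Mdm2, rose by 0.34 ± 0.09 and 0.44 ± 0.08. Rps19, the gene most often mutated in Diamond-Blackfan anaemia, rose by 0.51 ± 0.09, from 12497 and 13439 to 17316 and 19637. Rps6, the substrate of the S6 kinases, rose by 0.24 ± 0.08, from 8382 and 8804 to 9743 and 10616. Rpl13a, which also acts in translational silencing, rose by 0.42 ± 0.09, Rps18 by 0.41 ± 0.08, Rps4x by 0.42 ± 0.10, Rps3 by 0.30 ± 0.10, Rpl37 by 0.48 ± 0.08 and Rpsa, the laminin receptor precursor, by 0.44 ± 0.10. Rpl3, a protein of the peptidyl transferase region, changed by 0.21 ± 0.09 (adjusted p = 0.067).

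Of the 8 proteins around the exit tunnel 7 rose (median 0.36), as did all 5 at the mRNA entry and decoding site (median 0.45) and all 4 at the mRNA exit (median 0.47). Rps27 read 47.6 and 53.1 under SB505124 and 48.4 and 36.6 under TGFβ, and its groups overlapped. Its paralog Rps27l rose by 0.40 ± 0.09, from 4957 and 5316 to 6310 and 7318. Genes with a tract within 50 bases of an annotated start had a median of 0.41 (48 genes) and those without one 0.43 (8 genes). Such a tract need not lie at the first base or within the mRNA, so these groups do not separate mRNAs with and without a TOP tract.

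Transcript length moved with this result. By coding length, the median WT change of the ribosomal protein genes was 0.49 below 400 bases (26 genes), 0.44 from 400 to 600 (29 genes) and 0.35 from 600 to 1000 (19 genes). The medians of the other tested genes also fell with length, from 0.31 through 0.21 to 0.10 in those ranges, then -0.02 from 1000 to 2000 bases and -0.20 above. Across the 76 genes, which share libraries, Pearson's r of the WT change with log2 coding length was -0.31 and Spearman's rho -0.51, and without Rpl30, Rpl34 and Rps27 they were -0.61 and -0.65; genes are not independent replicates. A correction of each library for mRNA length and GC content was fitted on the other genes and chosen after seeing the data. After it 35 of the 76 rose, all among the 68, and 2 fell (Rpl10a and Rpl29). The median was 0.15, and over all genes 19.0% rose and 24.3% fell. The sign of 13 genes turned, 7 of them among the 68; Rps6, Rplp0, Rplp1 and Rpl3 then had values of -0.07, -0.05, -0.06 and -0.01.

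**Figure D3:**
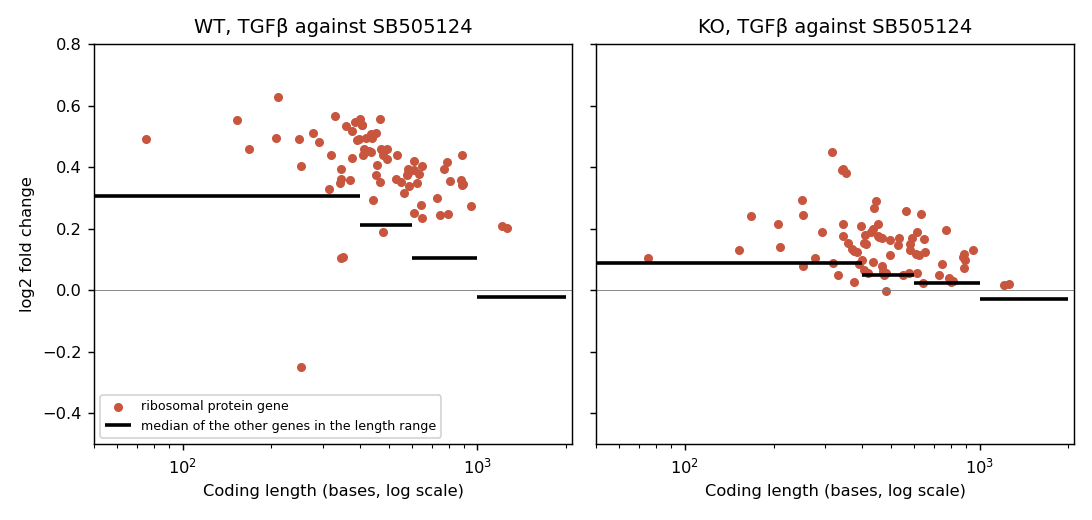
log2 fold change of TGFβ against SB505124 (y axis) by coding length (x axis, log scale) in WT (left) and KO-labelled cells (right). Points are the 76 ribosomal protein genes and black lines the median of the other tested genes in each length range up to 2000 bases; in WT both fall with length, and most points lie above the line of their range.

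In KO-labelled cells the same comparison gave a smaller median, 0.13 (1.09-fold), against -0.02 over all tested genes. Of the 76 genes 9 rose and none fell, against 15.1% and 15.8% of all tested genes, so the share called (9 of 76) was not above the background. In 48 genes both TGFβ libraries stood above both SB505124 libraries (31.2% of all tested genes), and in none both below (35.9%). At an unadjusted p under 0.05, 18 were higher and 0 lower, and edgeR and DESeq2 called 11 and 8 higher and 0 lower. No share of all tested genes is given beside these counts. The 9 were Rpl36, Rplp1, Rplp2, Rpl27a, Rpl18, Rpl13, Rps21, Rps16 and Rps29. Rpl36 read 3584 and 5143 under SB505124 and 5421 and 6327 under TGFβ, a change of 0.45 ± 0.14 (limma adjusted p = 0.019). Rplp1 changed by 0.39 ± 0.14, Rplp2 by 0.39 ± 0.12, Rps21 by 0.29 ± 0.09 and Rpl27a by 0.29 ± 0.10. In all 5 the first SB505124 library was the lowest of the 8, and without that library none of the 76 was called, nor without the second TGFβ library. After the length and GC correction none of the 9 was called. There 7 other genes (Rpl5, Rpl23a, Rps12, Rps13, Rps20, Rps23 and Rps27l) were higher and 1 (Rpl29) lower. Over all genes 15.1% were then higher and 22.6% lower. The sign of 32 of the 76 turned, and their median was 0.03.

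The difference between the responses is the KO-labelled change minus the WT change. Its median over the 76 genes was -0.26, against 0.01 over all tested genes, and it was below 0 in 71 of the 76. By coding length the medians of the 76 were -0.31 below 400 bases, -0.27 from 400 to 600 and -0.25 from 600 to 1000. Other tested genes in those ranges were also below 0, with medians of -0.21, -0.13 and -0.06. From 1000 to 2000 bases and above, the medians of other tested genes were 0.02 and 0.13. The test of the difference called 2 genes lower and none higher, against 0.568% and 2.25% of all tested genes. In 47 genes every KO-labelled pairing of libraries gave a smaller change than every WT pairing (13.7% of all tested genes). Rpl35a read 6852 and 6419 in KO-labelled cells under SB505124 and 6628 and 7122 under TGFβ, a response of 0.05 ± 0.09, and its difference from WT was -0.52 ± 0.13 (limma adjusted p = 0.031). Rpl38 read 4011 and 4100 under SB505124 and 4190 and 4767 under TGFβ, a response of 0.14 ± 0.09 and a difference of -0.49 ± 0.13 (adjusted p = 0.043). Their WT values are those given above. The count rests on single libraries: without the first WT TGFβ library 27 genes were called lower, and without either WT SB505124 library, the second WT TGFβ library or the first KO-labelled TGFβ library none was. It was 6 with edgeR and 14 with DESeq2. After the length and GC correction neither Rpl35a (limma adjusted p = 0.05002) nor Rpl38 (adjusted p = 0.1126) was called. There 3 other genes (Rps15a, Rps20 and Rps24) were lower, against 1.9% of all genes (3.2% were higher), and the median was -0.13. For these 3 the correction used annotated mRNAs of 5130, 3706 and 1613 bases, with coding lengths of 390, 357 and 399 bases. Rps20 was also among the genes called in KO-labelled cells after the correction. The part of these mRNA lengths in the calls was not tested. At an unadjusted p under 0.05, 40 genes were lower. The count of higher genes was 0 there and with both other tools. No share of all tested genes stands beside the counts at this threshold, with the other tools or without a library. The 0.568% and 2.25% belong to the limma adjusted call.

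The P stalk, the trio that recruits the translation factors with GTPase activity, had differences near 0 in its 2 small members. Rplp1 read 25480 and 29464 in WT under SB505124 and 38649 and 31464 under TGFβ, then 16427 and 23711, and 24298 and 27601, in KO-labelled cells. Its difference of responses was 0.04 ± 0.20. Rplp2 read 12567 and 13396, then 18933 and 15351, in WT, and 8953 and 11685, then 12507 and 14422, in KO-labelled cells, a difference of -0.00 ± 0.17. With these SEs, differences of the size seen in Rpl35a lie more than 2 SE away from either value. For both genes the first TGFβ library was the higher in WT, the reverse of Rpl38 and Rpl35a. Rplp0, the scaffold of the stalk, changed by 0.27 ± 0.10 in WT and by 0.13 ± 0.10 in KO-labelled cells, a difference of -0.14 ± 0.14.

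**Figure D4:**
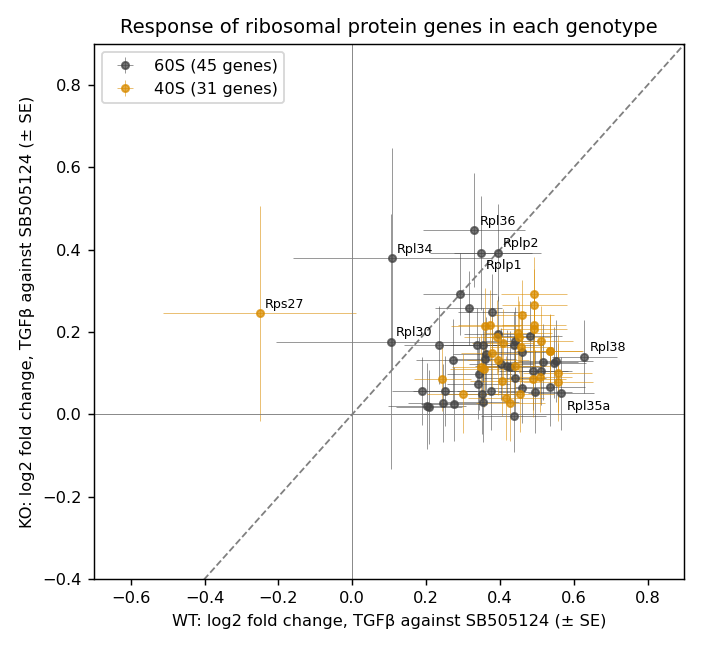
log2 fold change of TGFβ against SB505124 in WT (x axis) and KO-labelled cells (y axis) for each of the 76 genes, with SE bars; grey points are 60S and orange points 40S genes, and the dashed line marks equal change. Most points lie below the line, Rpl38 and Rpl35a far to the right at KO values of 0.14 and 0.05, while Rplp1 and Rplp2 lie on or near it.

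The genotypes were then compared under each agent. Under SB505124, 45 of the 76 genes were lower in KO-labelled cells and none was higher, against 27.7% and 29.2% of all tested genes, and the median was -0.27 (0.829-fold), against 0.01 over all tested genes. In 67 genes both KO-labelled libraries were below both WT libraries (38.4% of all tested genes), and in 1, Rps27l, both were above (40.4%). Of the large subunit 24 of 45 were lower (median -0.26) and of the small subunit 21 of 31 (median -0.29). Under TGFβ, 71 of the 76 were lower and none higher, against 30.2% and 32.7% of all tested genes, and the median was -0.55 (0.684-fold). In 72 genes the groups did not overlap, against 38.7% of all tested genes. For coding lengths below 400, from 400 to 600 and from 600 to 1000 bases, the medians of the 76 under TGFβ were -0.58, -0.56 and -0.54. Those of the other tested genes in these ranges were -0.24, -0.15 and -0.11. Under SB505124 the other tested genes had medians of -0.03, -0.02 and -0.03. Without the second WT SB505124 library the count under SB505124 was 22, and without the first KO-labelled SB505124 library it was 23. The count of higher genes was 0 under both agents also at an unadjusted p under 0.05 and with edgeR and DESeq2. These comparisons share their libraries with those above.

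The largest deficits belonged to genes on 2 chromosomes. Rpl22, a 60S protein dispensable for the ribosome itself in many tissues, read 7541 and 7748 in WT under SB505124 and 3252 and 3052 in KO-labelled cells, and 10283 and 12139 against 3288 and 3590 under TGFβ. Its log2 fold changes were -1.28 ± 0.09 (limma adjusted p = 3.9e-10) and -1.70 ± 0.09 (adjusted p = 6.3e-12). Rps20, a 40S head protein, read 15064 and 16158 against 6381 and 6730 under SB505124, and 21612 and 23628 against 6774 and 7840 under TGFβ, changes of -1.25 ± 0.09 and -1.63 ± 0.09. Rpl11 changed by -0.99 ± 0.08 and -1.26 ± 0.08, Rps24 by -0.96 ± 0.09 and -1.42 ± 0.09, and Rps6 by -0.96 ± 0.08 and -1.12 ± 0.08. In all 5 genes every KO-labelled library was below every WT library.

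Of the 76 genes 5 lie on chromosome 4, among them Rpl11, Rpl22, Rps6 and Rps20, and Rpl15 and Rps24 lie on chromosome 14; all 7 were called lower under both agents, with medians of -0.99 and -1.28. Other genes of those chromosomes were lower as well. The 745 other tested genes of chromosome 4 had a median of -0.68 under SB505124, with 80.1% called lower, and the 399 of chromosome 14 a median of -0.61, with 74.4% called lower. Under TGFβ the other genes of chromosomes 4 and 14 had medians of -0.68 and -0.58, with 77.2% and 70.2% called lower. On the remaining chromosomes the medians of other genes lay between -0.04 and 0.26 under SB505124. The copy number of chromosomes 4 and 14 in these cells was not measured here. The grouping by chromosome was made after the values were seen. Among the 69 ribosomal protein genes elsewhere, 38 were lower under SB505124 (median -0.26) and 64 under TGFβ (median -0.54). In the TGFβ response the 7 had a median of 0.44 in WT and 0.11 in KO-labelled cells, and the 69 medians of 0.40 and 0.13.

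**Figure D5:**
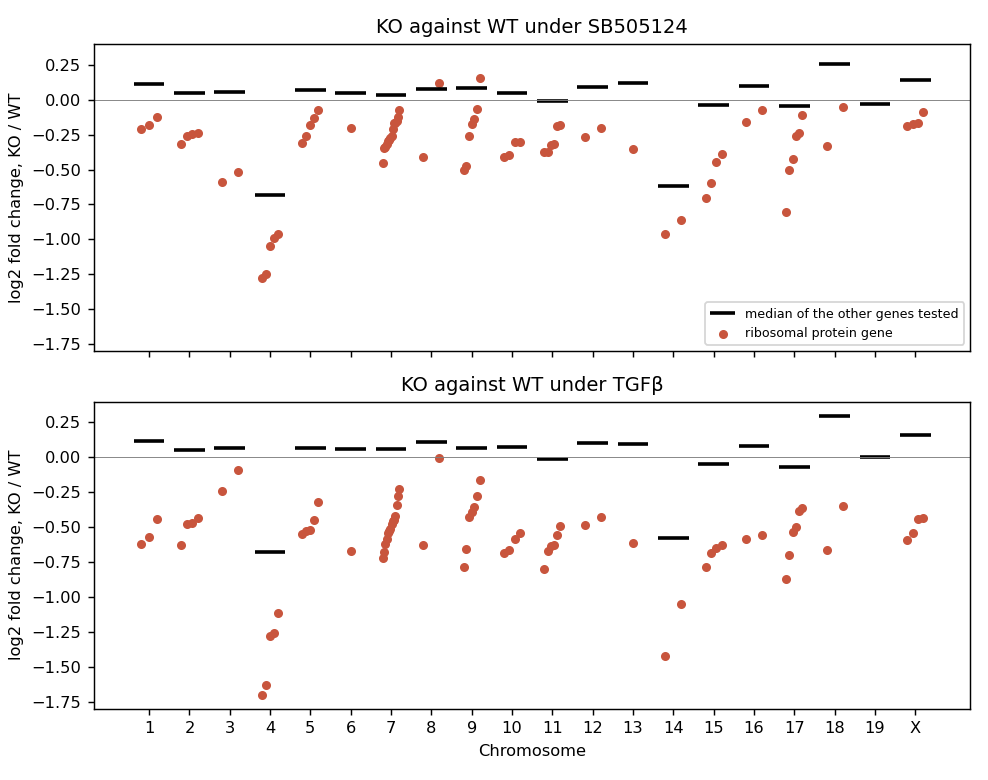
log2 fold change of KO-labelled against WT cells (y axis) under SB505124 (top) and TGFβ (bottom) by chromosome (x axis). Points are ribosomal protein genes and black lines the median of the other tested genes of the chromosome; both are lowest on chromosomes 4 and 14, where the lines stand at -0.68 and -0.61 under SB505124, and on the other chromosomes most points lie below the line.

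On the other chromosomes the differences under SB505124 ran from -0.80 to 0.16. Rpl10a, on chromosome 17, was the lowest of the 69 under SB505124, with 11575 and 12077 in WT and 6163 and 7469 in KO-labelled cells (-0.80 ± 0.09); it falls outside the rule for named genes and was chosen after its values were seen. Rpl3 changed by -0.60 ± 0.09 under SB505124 and -0.79 ± 0.09 under TGFβ, Rpl5 by -0.31 ± 0.09 and -0.55 ± 0.09, Rpl13a by -0.32 ± 0.09 and -0.62 ± 0.09, Rps19 by -0.26 ± 0.09 and -0.68 ± 0.09, and Rps18 by -0.26 ± 0.08 and -0.50 ± 0.08. Other genes passed the test under TGFβ and not under SB505124: Rpl35a changed by -0.07 ± 0.09 and -0.59 ± 0.09, Rpl38 by -0.18 ± 0.09 and -0.67 ± 0.09, Rpl39 by -0.17 ± 0.10 and -0.59 ± 0.10, Rps3 by -0.17 ± 0.10 and -0.42 ± 0.10, Rps4x by -0.16 ± 0.10 and -0.54 ± 0.10, and Rpsa by -0.07 ± 0.10 and -0.39 ± 0.10. Of these 6, the test of the difference passed for Rpl35a and Rpl38.

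Under TGFβ the 5 genes not called were Rpl13, Rpl30, Rpl34, Rps27 and Rps27l. Rps27l, a p53-regulated paralog of Rps27, read 5838 and 5627 in KO-labelled cells under SB505124 against 4957 and 5316 in WT (0.16 ± 0.09, adjusted p = 0.12), and 5798 and 6330 against 6310 and 7318 under TGFβ (-0.17 ± 0.09, adjusted p = 0.10). Rpl13 changed by 0.12 ± 0.09 and -0.01 ± 0.09. After the length and GC correction 37 genes were lower, 31 of them among the 45, and 1, Rpl13, was higher under SB505124 (median -0.17). Under TGFβ 58 were lower, all among the 71, and 1, again Rpl13, was higher (median -0.32). Over all genes 26.2% were then lower and 36.5% higher under SB505124, and 29.2% and 36.7% under TGFβ. The sign turned in 10 and 7 of the 76 genes.

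Other gene lists are given as counts, to be read against the shares of all tested genes: 20.2% higher and 23.2% lower in WT, 15.1% and 15.8% in KO-labelled cells, 29.2% and 27.7% for KO-labelled against WT under SB505124, and 32.7% and 30.2% under TGFβ. Of 6 tested ribosomal proteins whose symbols fall outside the pattern, 5 rose in WT under TGFβ, 1 (Fau) rose in KO-labelled cells, 2 were lower in KO-labelled cells under SB505124 (median -0.11) and 6 under TGFβ (median -0.41). Gnb2l1, which encodes the 40S scaffold RACK1, rose by 0.31 ± 0.10 in WT. Rps3a1, added after its values were seen, rose by 0.36 ± 0.09 in WT and was -0.49 ± 0.09 in KO-labelled against WT cells under TGFβ.

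Among 77 mitochondrial ribosomal protein genes, whose products form a separate ribosome, 40 rose and none fell in WT (median 0.26), with Mrpl33 at 0.54 ± 0.09 and Mrps21 at 0.51 ± 0.09. In KO-labelled cells 5 rose and 1, Mrpl50, fell (median 0.07). Against WT, 22 were lower and 7 higher under SB505124 (median -0.09), and 44 lower and 2 higher under TGFβ (median -0.30). Mrps16 on chromosome 14 had the smallest p under both agents (-1.27 ± 0.10 and -1.40 ± 0.10).

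Translation factors and other mRNAs with TOP tracts gave 10 rises and 1 fall among 21 genes in WT (median 0.14) and 1 rise in KO-labelled cells, in Hnrnpa1, an RNA-binding protein (0.55 ± 0.10 in WT and 0.28 ± 0.10 in KO-labelled cells). Eef1d, an exchange factor for elongation factor 1A, rose by 0.43 ± 0.08 in WT. In KO-labelled against WT cells 10 were lower under SB505124 and 15 under TGFβ, and none was higher, with Tpt1 at -0.63 ± 0.09 and -0.85 ± 0.09; Tpt1 lies on chromosome 14. The 9 tested snoRNA host genes, non-coding RNAs with TOP starts whose introns carry small nucleolar RNAs, gave 4 rises in WT (Snhg5 by 0.44 ± 0.10), and 1 fall in KO-labelled cells (Snhg3, -0.35 ± 0.11). All 9 were lower in KO-labelled than in WT cells under both agents, with medians of -0.82 and -1.05; Snhg5, on chromosome 9, was at -0.82 ± 0.10 and -1.19 ± 0.10.

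Of 40 biogenesis factors, which build ribosomes, 4 rose and 17 fell in WT (median -0.16), and 1 rose and 19 fell in KO-labelled cells (median -0.21). Tsr1, a 40S maturation factor, changed by -0.90 ± 0.10 in WT, and Rrp1b by -0.56 ± 0.08 and -0.48 ± 0.08 in the 2 genotypes. Eif6, which keeps free 60S subunits from joining, rose by 0.49 ± 0.09 and 0.43 ± 0.09. Against WT, 21 factors were lower and none higher under SB505124, and 22 lower and 1 higher under TGFβ.

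Of 15 genes of RNA polymerase I transcription, which makes ribosomal RNA, 3 rose and 4 fell in WT, and 1 rose and 3 fell in KO-labelled cells; the WT shares are near those of all tested genes. The polymerase subunit Cd3eap rose by 0.90 ± 0.08 and 0.76 ± 0.08, while Polr1b fell by 0.38 and 0.44 on the log2 scale. In KO-labelled against WT cells 5 were lower under SB505124 and 6 under TGFβ, and none was higher.

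Of 16 genes of mTORC1 and LARP1 control, 2 rose and 8 fell in WT, and 2 rose and 6 fell in KO-labelled cells. Ddit4, an inhibitor of mTORC1, rose by 2.41 ± 0.10 in WT and 2.42 ± 0.10 in KO-labelled cells. Eif4ebp1, a repressor of cap-dependent translation, was at -0.99 ± 0.08 and -0.85 ± 0.08 in KO-labelled against WT cells, where 3 were higher and 5 lower under SB505124, and 2 higher and 3 lower under TGFβ.

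In the MYC network (10 tested), 1 rose and 4 fell in WT, and 3 rose and 5 fell in KO-labelled cells. Myc, a transcriptional activator of many ribosomal genes, fell by 0.51 and 0.64 on the log2 scale under TGFβ, in WT and in KO-labelled cells. Mycn read between 2.03 and 4.57 in the WT libraries, 34.4 and 27.6 in KO-labelled cells under SB505124, and 105 and 107 under TGFβ. In KO-labelled against WT cells 4 and 5 of the 10 were higher under SB505124 and TGFβ, and 1 lower under each. Of 14 p53 targets 5 rose and 5 fell in WT, and 5 rose and 3 fell in KO-labelled cells; Cdkn1a rose by 0.94 ± 0.08 and 0.62 ± 0.08. Against WT, 8 were higher and 3 lower under SB505124, and 6 higher and 5 lower under TGFβ. In the test of the difference between responses limma called none of the tested genes of these lists outside the 76.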

How the data were processed

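RNA from 8 samples was made into TruSeq libraries, per the labels' protocols; this kit does not keep strand. The submitters' processing notes name FastQC 0.11.5, HTSeq 0.6.1p1, DESeq2 (given as version 3.4) and mm10; the aligner is not given in the sources used here. The deposited table holds a normalised signal per gene, that is reads divided by a size factor (0.875 to 1.16). In all 8 columns 100% of values came out whole, within 0.01 reads, after division by that step, and depth and shares use those reads. Here log2(value + 1) was fitted with limma 3.58.1 (R 4.3.3, variance trend, 4 group means, 8 libraries, 4 residual degrees of freedom) over the 12498 genes with a mean of at least 10. On the recovered reads, edgeR 4.0.16 called 72 of the 76 ribosomal protein genes higher in WT and DESeq2 1.42.0 called 69. The shares of all tested genes with these tools are not given. Fits were tested on simulated data. Lengths and positions come from GENCODE for GRCm38, in which all 76 were found. Alternatives were other scalings, pseudocounts, filters and tools, a replicate block and leaving out each library; the length and GC correction and the alternatives on chromosomes 4 and 14 were chosen after seeing the data. The members and lists were chosen with earlier results of these data known. Genes named are those listed for their role, up to 5 with the largest called change in each direction per comparison whose groups do not overlap, up to 4 per other list by p, and the 3 highest and lowest per length. Not every gene chosen in this way is described in the text.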

Additional observations from a re-analysis of the deposited data

Results flagged for a closer look

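Rpl35a and Rpl38 responded differently in the genotypes by the test of the difference itself. For Rpl35a the KO-labelled response minus the WT response was -0.52 (limma adjusted p = 0.031), and for Rpl38 it was -0.49 (adjusted p = 0.043). Over 21 alternatives the adjusted p of Rpl35a ran from 0.0007938 to 0.233, with 9 past the threshold on the other side, and that of Rpl38 from 0.002008 to 0.3038, also with 9. Groups of 2 libraries are too small for a check of single outlying libraries.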

How the results depend on the processing

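Shares of all tested genes are given above for the fit as reported and for the length and GC correction, and for no other alternative. The length and GC correction moved the most values. In WT it gave 35 genes higher, 2 lower and a median of 0.15; in KO-labelled cells 1 lower and a median of 0.031; for the difference of responses a median of -0.13, with neither of the 2 main calls kept and 3 other genes called; in KO-labelled against WT cells 1 higher and a median of -0.17 under SB505124, and 1 higher and -0.32 under TGFβ. Over the 76 genes it turned the sign of 13 WT changes, 32 in KO-labelled cells, 8 differences, and 10 and 7 of KO against WT under SB505124 and TGFβ. Among 71 values of 27 named genes that were followed over all alternatives, it turned the WT change of Rpl3 (-0.012), Rplp0 (-0.055), Rplp1 (-0.056) and Rps6 (-0.069), of KO against WT under SB505124 in Rplp0 (0.081) and Rpsa (0.068), and under TGFβ in Rplp1 (0.0047) and Rps27 (0.28). The cause was not tested. Rps27 under TGFβ also turned without WT TGFβ replicate 1 (0.11) or KO TGFβ replicate 1 (0.13), with a range of -0.31 to 0.13 when each library was left out, and Rpsa under SB505124 without WT SB505124 replicate 2, with a range of -0.15 to 0.014.

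Of the 9 rises in KO-labelled cells, 0 were called with no filter on low values, with no variance trend or with only the 2 groups fitted, and 3 with total read count scaling. Of the 2 calls of the difference, 0 remained with no filter and no trend, 1 with TMM scaling, and edgeR gave 6 and DESeq2 14. Leaving out each library gave 47 to 68 rises in WT (median 0.35 to 0.48), 0 to 14 in KO-labelled cells (0.06 to 0.18), 0 to 27 genes with a lower difference (-0.34 to -0.20), 22 to 52 lower under SB505124 (-0.33 to -0.23) and 63 to 71 under TGFβ (-0.64 to -0.47). With the genes outside the symbol pattern added, the shares of reads were 4.62%, 5.85%, 3.73% and 3.95% in WT SB505124, WT TGFβ, KO SB505124 and KO TGFβ. Over all tested genes, libraries with the same replicate number did not deviate together in all pairs of groups (r from -0.199 to 0.198). The ribosomal protein share of reads, however, was higher in the second library of every group. It was 4.18% and 4.47% in WT SB505124, 5.27% and 5.70% in WT TGFβ, 3.41% and 3.55% in KO SB505124, and 3.51% and 3.87% in KO TGFβ. Whether the number marks a shared batch was not tested. With the replicate block 69 genes rose in WT and 12 in KO-labelled cells, 2 had a lower difference, and 48 and 70 were lower in KO-labelled cells under SB505124 and TGFβ. Over all alternatives these 71 values were recomputed 1557 times, and 11 of the recomputed values turned sign. Among those that kept their sign 137 lost their call and 13 gained one. At these depths counting error is small for most of the genes, and the 2 libraries a group limit the precision. It is larger for Rpl30, Rps27 and Rpl34, which had 229, 333 and 451 reads over the 8 libraries.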
